A study of Homo sapiens with 6 samples.

Results

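The interferon-stimulated effector genes are 49 genes whose products act against viruses and other intracellular threats, or relay the interferon signal, once a cell has met interferon. They were taken by gene name from the deposited count table, and all 49 names were found once each among its 26524 genes. All 49 passed the filter on low counts and were among the 14964 genes tested. The libraries called shLIS1 here come from SCC25 cells with a short hairpin against LIS1 (3 samples), and they are set against SCC25 cells labelled control (3 samples), all in the batch numbered 1. SCC25 is a long-established line of human tongue carcinoma cells of squamous type. LIS1 helps the dynein motor carry loads along microtubules and is encoded by PAFAH1B1. No interferon, virus or other agent is named in the labels of either group. The labels do not say whether the hairpin samples carry 1 hairpin or several, whether they are clones, pools or separate cultures, or whether the control cells carry a hairpin, so p-values measure the spread between these samples, which may be technical. The comparison asks how these genes stand in the cells with the hairpin against LIS1. Lowering of LIS1 and any other effect of carrying a hairpin cannot be told apart in it.

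Type I and type III interferons bind receptors that activate the kinases JAK1 and TYK2, which phosphorylate STAT proteins. STAT2 and IRF9 act in a complex that binds the interferon-stimulated response element (ISRE) in promoters, while interferon gamma acts through a different motif, the gamma-activated site (GAS). Squamous epithelial cells make and answer interferons, and many carcinoma lines hold part of this programme switched on without added interferon.

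Library totals were between 17674881 and 22790599 counts in shLIS1 and between 15661916 and 20549728 counts in control. Levels are given as CPM, the counts scaled to a common library size, with TMM scaling, which assumes most genes do not differ. PAFAH1B1 was at 111, 109 and 113 CPM in shLIS1 libraries 1 to 3, against 157, 165 and 154 CPM in control libraries 1 to 3. It fell by 0.52 on the log2 scale (SE 0.05, edgeR adjusted p = 6.53e-08), a partial lowering, and by 0.81 with the offset for transcript length and GC content described further on. The 12 squamous epithelial markers summed to between 13631 and 14670 CPM in shLIS1 and between 14688 and 14979 CPM in control. Of these 12, 5 were higher and 4 lower, where 23.5% of all tested genes were higher and 24.9% lower. Markers of T and NK cells summed to at most 0.509 CPM and the measured B cell marker reached at most 0.0491 CPM in any library. Myeloid and dendritic cell markers summed to between 11.8 and 13.1 CPM in shLIS1 and between 16.7 and 18.9 CPM in control. Of these, CD14 fell by 0.77 on the log2 scale, while ITGAM (0.34) and CSF1R (-0.08) did not pass the threshold given below. LYZ had 0 counts in shLIS1 libraries and at most 1 in a control library. A count of 0 allows up to 0.192 CPM at these depths. Fibroblast markers summed to between 13.3 and 15.8 CPM in shLIS1 and between 17.1 and 21.9 CPM in control. COL1A1 (-0.50), COL1A2 (-0.97) and PDGFRB (-1.02) fell and LUM (0.33) did not pass. With the offset COL1A1 and COL1A2 stayed lower and PDGFRB did not pass (-0.88, edgeR adjusted p = 0.0693). Endothelial markers summed to between 7.33 and 8.65 CPM in shLIS1 and between 12.9 and 17.1 CPM in control. CDH5 (-0.93) fell and VWF (-0.65) did not pass. Schwann and nerve cell markers summed to between 1.19 and 1.95 CPM in shLIS1 and between 1.24 and 1.67 CPM in control. TUBB3 (0.77) did not pass, but was called higher with the offset (1.09, edgeR adjusted p = 0.00773). Counts on the mitochondrial genome were 7.45% to 7.68% of the total in shLIS1 and 5.46% to 6.15% in control, and the part of these differences in the results was not tested.

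Most interferon-stimulated effector genes were higher in shLIS1, but the family did not move as one. Of the 49 members, 35 rose, 10 fell and 4 did not pass the threshold, an edgeR quasi-likelihood p below 0.05 after Benjamini-Hochberg adjustment over all tested genes. Among all tested genes 23.5% were higher, 24.9% lower and 48.4% changed in either direction by the same rule. The median log2 fold change of the members was 0.49, against -0.01 for all tested genes. The shLIS1 libraries all lay above the control libraries for 34 members (27.1% of all tested genes) and all below for 11 members (29.0%), and 56.1% of all tested genes had groups that did not overlap. At least 2-fold rises were seen for 6 members, SAMD9L, SAMD9, XAF1, IFI44L, DDX60 and MX2 (3.41% of all tested genes). Together the members held 1.00%, 1.11% and 1.12% of the counts in shLIS1 libraries 1 to 3, against 0.807%, 0.854% and 0.876% in control libraries 1 to 3. In bulk RNA a larger share of responding cells and more RNA per cell cannot be told apart.

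The count of rises held on leaving out any library, between 34 and 35, while the count of falls ranged from 6 to 11. It was 6 without control library 3, where IFITM1, IFI27, IFI35 and LGALS3BP lost their call. Control library 1 was the lowest control library for 32 of the 49 members and shLIS1 library 1 the lowest shLIS1 library for 44. With an offset that removes the trend of fold change over transcript length and GC content across all genes, 36 members were higher (17.7% of all genes tested that way) and 5 lower (24.0%), with 41.8% called in either direction, and the median was 0.37, against -0.03 for all genes. That trend is described after the members.

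**Figure D1:**
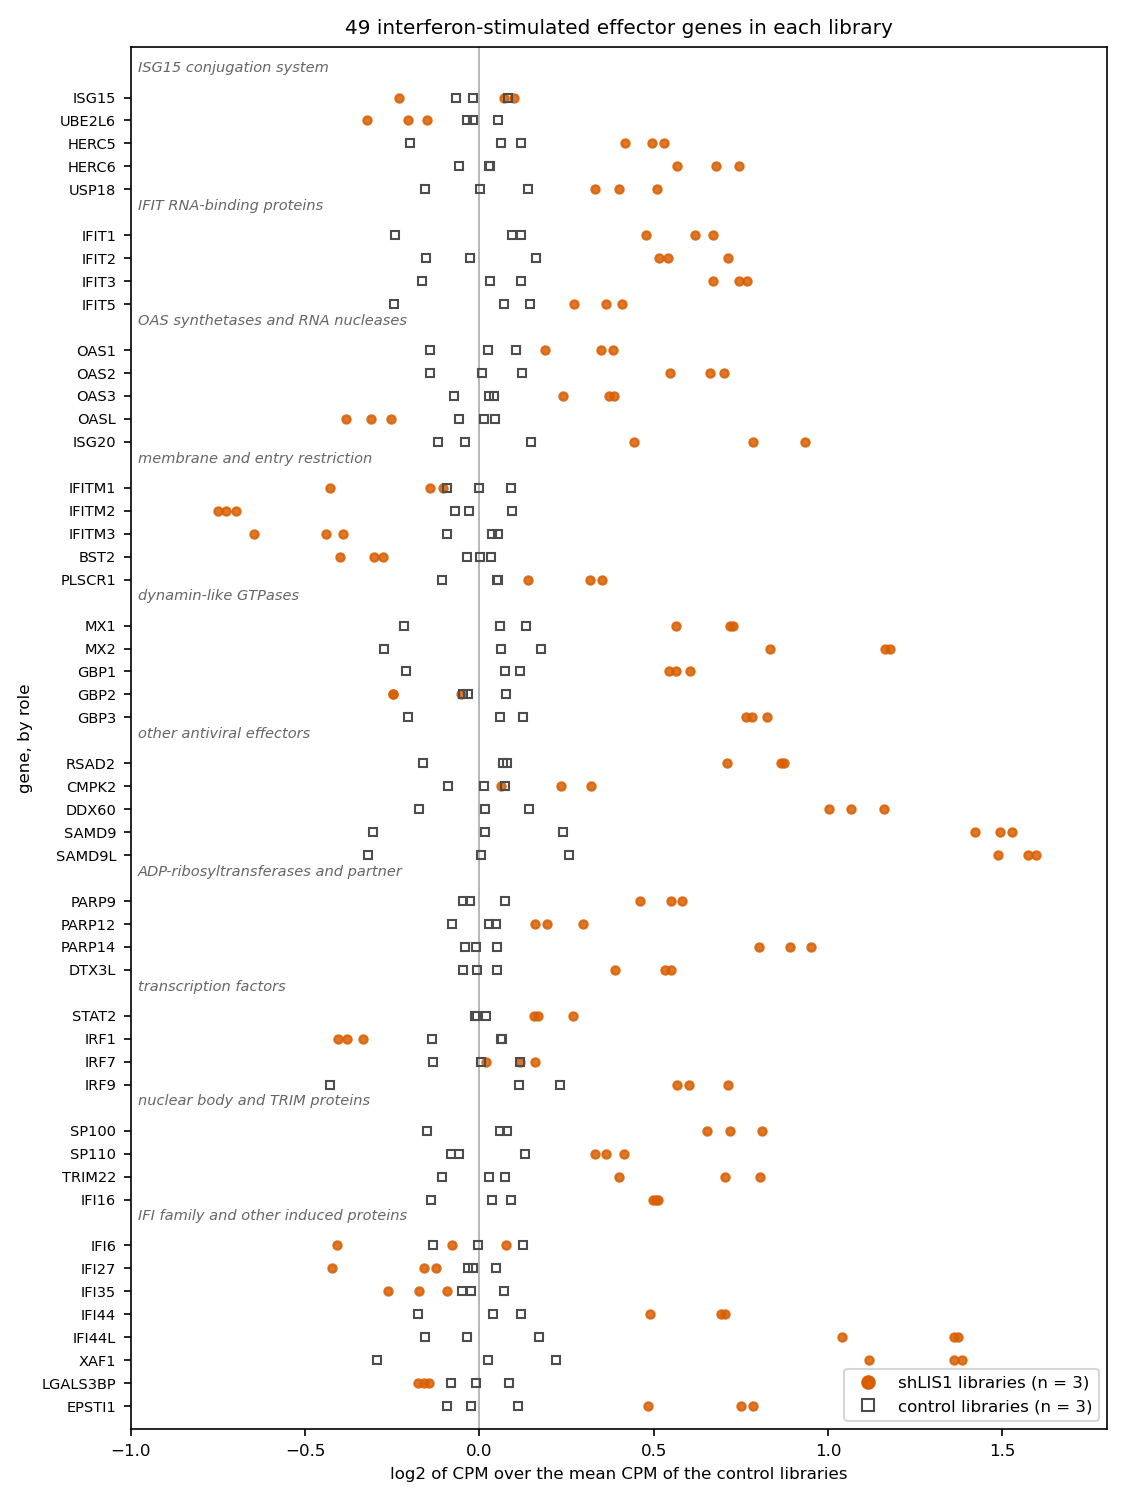
Log2 of the CPM in each library over the mean CPM of the 3 control libraries (x axis) for the 49 genes grouped by role (y axis), with filled circles for the 3 shLIS1 libraries and open squares for the 3 control libraries. The shLIS1 points lie to the right of all control points for 34 genes and to the left for 11, and overlap them for ISG15, CMPK2, IRF7 and IFI6.

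Many members held a match to the ISRE just before their start. Promoter windows from RefSeq (build GRCh38.p14, the 250 bases before each gene start) were matched by symbol for 40 members, in 55 windows because some genes have several starts. GBP2, IFIT2, IFITM2, IRF7, MX2, OAS2, OASL, TRIM22 and USP18 were not matched. The ISRE was searched as GAAA, any 2 bases and GAAA or, on the other strand, TTTC, any 2 bases and TTTC. It was found for 25 of the 40 members (62.5%), against 371 of 11166 tested genes with a window (3.32%). The GAS motif, TTCNNNGAA, which reads the same on both strands, was found for 13 members (32.5%) and for 7.43% of tested genes. In member windows 7 pairs of a GAS match and an ISRE match overlapped, counted in each window. Of the 25 with an ISRE, 18 rose, 5 fell and 2 did not pass, with a median log2 fold change of 0.53. Of the 15 without a match, 12 rose and 3 fell, with a median of 0.49. A match is a description of letters, not of a bound site.

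The windows shown next are those of the 5 members with the largest changes and an ISRE, the 2 with the largest changes and no match, and 2 short abundant members with an ISRE that did not rise, IFITM3 and ISG15, the last 2 chosen after their values were seen. They lie at chr7:93117980-93118229 (minus strand), chr1:78620198-78620447 (plus), chr4:168318753-168319002 (minus), chr3:122680589-122680838 (plus), chr2:6877527-6877776 (plus), chr7:93148386-93148635 (minus), chr17:6755197-6755446 (plus), chr11:320861-321110 (minus) and chr1:1013247-1013496 (plus). Each is written 5′ to 3′ along the gene and ends at the base before the start, and capitals mark every ISRE match.
SAMD9: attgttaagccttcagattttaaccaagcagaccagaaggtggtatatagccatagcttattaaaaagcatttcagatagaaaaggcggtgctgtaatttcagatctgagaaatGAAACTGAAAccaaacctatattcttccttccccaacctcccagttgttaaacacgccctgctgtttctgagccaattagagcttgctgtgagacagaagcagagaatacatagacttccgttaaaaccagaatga
IFI44L: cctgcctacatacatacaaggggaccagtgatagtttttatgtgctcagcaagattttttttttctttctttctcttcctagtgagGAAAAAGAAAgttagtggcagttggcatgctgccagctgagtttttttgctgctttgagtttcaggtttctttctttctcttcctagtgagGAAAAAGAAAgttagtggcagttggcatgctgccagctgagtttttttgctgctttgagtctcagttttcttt
DDX60: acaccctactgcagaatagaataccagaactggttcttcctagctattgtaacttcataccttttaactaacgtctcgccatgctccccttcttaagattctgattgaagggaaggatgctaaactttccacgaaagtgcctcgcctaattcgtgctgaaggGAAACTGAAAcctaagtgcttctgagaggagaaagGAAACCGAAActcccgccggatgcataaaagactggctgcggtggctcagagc
PARP14: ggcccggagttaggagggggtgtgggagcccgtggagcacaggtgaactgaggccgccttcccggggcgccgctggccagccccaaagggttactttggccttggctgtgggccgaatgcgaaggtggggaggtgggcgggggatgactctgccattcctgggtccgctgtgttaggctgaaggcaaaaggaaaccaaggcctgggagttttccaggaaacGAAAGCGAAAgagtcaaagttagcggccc
RSAD2: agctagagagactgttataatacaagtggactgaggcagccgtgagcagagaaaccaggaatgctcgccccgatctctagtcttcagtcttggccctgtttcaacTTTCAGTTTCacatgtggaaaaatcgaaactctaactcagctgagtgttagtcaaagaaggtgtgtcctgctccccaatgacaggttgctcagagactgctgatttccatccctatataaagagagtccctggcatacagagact
SAMD9L: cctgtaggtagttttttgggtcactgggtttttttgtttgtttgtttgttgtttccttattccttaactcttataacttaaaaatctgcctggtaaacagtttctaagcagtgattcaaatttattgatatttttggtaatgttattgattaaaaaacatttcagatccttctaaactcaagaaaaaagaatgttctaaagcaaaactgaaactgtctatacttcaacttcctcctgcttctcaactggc
XAF1: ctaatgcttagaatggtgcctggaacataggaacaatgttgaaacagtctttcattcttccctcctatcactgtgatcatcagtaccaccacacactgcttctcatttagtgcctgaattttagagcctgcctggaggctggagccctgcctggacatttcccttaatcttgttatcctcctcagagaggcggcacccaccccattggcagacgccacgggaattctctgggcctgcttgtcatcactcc
IFITM3: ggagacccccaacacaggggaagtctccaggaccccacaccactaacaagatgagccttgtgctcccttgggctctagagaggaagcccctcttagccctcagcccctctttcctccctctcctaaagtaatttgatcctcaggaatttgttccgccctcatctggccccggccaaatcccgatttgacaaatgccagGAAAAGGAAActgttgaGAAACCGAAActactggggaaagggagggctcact
ISG15: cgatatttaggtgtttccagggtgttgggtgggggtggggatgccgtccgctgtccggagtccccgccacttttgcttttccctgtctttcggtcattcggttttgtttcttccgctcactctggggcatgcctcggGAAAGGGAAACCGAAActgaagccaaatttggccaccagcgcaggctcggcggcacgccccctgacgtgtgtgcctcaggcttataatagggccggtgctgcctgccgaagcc
In SAMD9 the match begins 136 bases before the start, and in PARP14 29 bases before it. DDX60, IFI44L, IFITM3 and ISG15 each hold a pair of matches, and those of ISG15 share 4 bases. RSAD2 holds its match in the TTTC orientation.

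The group with the largest rises was that of antiviral effectors outside the main families, in which 5 of 5 genes rose with a median log2 fold change of 1.08. SAMD9 and SAMD9L, neighbours on chromosome 7 (93099513 to 93148385, build hg38), encode proteins that restrain translation and viral growth. SAMD9 was at 426, 447 and 458 CPM in shLIS1 libraries 1 to 3, against 128, 187 and 160.5 CPM in control libraries 1 to 3 (log2 fold change 1.48, SE 0.13, edgeR adjusted p = 9.27e-05). SAMD9L was at 157, 169.5 and 167 CPM in shLIS1, against 44.9, 67.0 and 56.2 CPM in control (1.55, SE 0.13, edgeR adjusted p = 0.000105), the largest rise of the 49 members. For both genes the 3 shLIS1 libraries lay close together and control library 1 was the lowest. DDX60, a helicase-like protein that acts with RNA sensors, was at 200.3, 224 and 209.5 CPM in shLIS1, against 88.7, 110.3 and 101 CPM in control (1.08, SE 0.07, edgeR adjusted p = 1.97e-09). RSAD2, or viperin, which makes a chain-ending nucleotide for viral polymerases, was at 122, 136 and 137 CPM in shLIS1, against 66.7, 78.9 and 78.2 CPM in control (0.82, SE 0.07, edgeR adjusted p = 8.2e-09). Its neighbour CMPK2, a mitochondrial nucleotide kinase whose gene overlaps RSAD2 by 1079 bases on the opposite strand, had a log2 fold change of 0.21 (adjusted p = 0.018), and the shLIS1 and control libraries overlapped. The CMPK2 call was lost with upper quartile scaling and without control library 3, shLIS1 library 2 or shLIS1 library 3 (adjusted p up to 0.146). All 5 genes were also higher with the length and GC offset, SAMD9L with 1.12, SAMD9 with 1.01, DDX60 with 0.69, RSAD2 with 0.61 and CMPK2 with 0.22.

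The IFIT genes, in a cluster on chromosome 10 (89283694 to 89421605), encode proteins that bind RNA lacking the marks of host messages. All 4 rose. IFIT3 was at 402, 429 and 422 CPM in shLIS1 libraries 1 to 3, against 225, 274 and 258 CPM in control libraries 1 to 3 (log2 fold change 0.73, SE 0.06, edgeR adjusted p = 1.93e-08). IFIT2 was at 282, 287 and 323 CPM in shLIS1, against 177, 221 and 194 CPM in control (0.59, SE 0.07, edgeR adjusted p = 9.29e-06). The groups did not overlap for any of the 4. IFIT1 had a log2 fold change of 0.59 and IFIT5 of 0.35, and with the offset the 4 values were 0.65 for IFIT3, 0.40 for IFIT2, 0.35 for IFIT1 and 0.02 for IFIT5, which was no longer called (adjusted p = 0.83). The gene LIPA, which fell (-0.26), covers IFIT1, IFIT2 and IFIT3 on the opposite strand in the deposited coordinates. Whether counting used the strand is not given in the sources used here, so reads of these genes and of LIPA may not be told apart.

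The OAS proteins sense double-stranded RNA and make oligoadenylates that activate RNase L. OAS1, OAS3 and OAS2, side by side on chromosome 12 (112905856 to 113011723), rose. OAS2 was at 439, 489 and 475 CPM in shLIS1 libraries 1 to 3, against 272, 302 and 327 CPM in control libraries 1 to 3 (log2 fold change 0.64, SE 0.06, edgeR adjusted p = 1.17e-07). OAS3, with the highest CPM of the 49 members, was at 838, 918 and 928 CPM in shLIS1, against 731, 675 and 723 CPM in control (0.33, SE 0.05, edgeR adjusted p = 2.26e-05). OAS1 had a log2 fold change of 0.31. OASL, a relative without the synthetase activity whose gene lies elsewhere on chromosome 12, went the other way, at 147, 161 and 155 CPM in shLIS1, against 194, 184 and 198 CPM in control (-0.31, SE 0.05, edgeR adjusted p = 5.88e-05). Its fall stayed with the offset, at -0.29. ISG20, an RNA exonuclease, rose (0.74) at a low level, with a mean of 13.1 ± 2.20 CPM in shLIS1 and 7.88 ± 0.758 CPM in control (SD, n = 3 each).

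Among the dynamin-like GTPases 4 of 5 rose. MX1 and MX2, which assemble around viral ribonucleoproteins and capsids, lie together on chromosome 21 (41361999 to 41470071). MX2 was at 133, 167 and 169 CPM in shLIS1 libraries 1 to 3, against 61.7, 77.9 and 84.3 CPM in control libraries 1 to 3 (log2 fold change 1.06, SE 0.15, edgeR adjusted p = 0.00251), and MX1 had a log2 fold change of 0.67. TMPRSS2, which fell (-0.70), overlaps MX1 on the opposite strand but held 748 counts in all, against 58582 for MX1. MX2 kept 1.06 with the offset and MX1 had 0.71. The guanylate-binding proteins GBP1, GBP2 and GBP3, which coat pathogen vacuoles and bacteria, lie on chromosome 1 (89006679 to 89150456) and differed. GBP3 was at 70.3, 73.3 and 71.1 CPM in shLIS1, against 35.9, 45.1 and 43.1 CPM in control (0.79, SE 0.08, edgeR adjusted p = 4.26e-08). GBP1 was at 174, 176 and 181 CPM in shLIS1, against 103, 129 and 125 CPM in control (0.57, SE 0.07, edgeR adjusted p = 3.42e-06). GBP2 was at 35.2, 35.2 and 40.3 CPM in shLIS1, against 44.0, 40.8 and 40.4 CPM in control, with a log2 fold change of -0.18 (adjusted p = 0.0622), and was called lower, close to the threshold, with the offset (adjusted p = 0.0441). Of 50-base stretches of the longest GBP1 transcript, 13.3% also occur in transcripts of other genes, so its count is less certain.

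Of the 5 membrane proteins that block virus entry and exit, 4 fell and 1 rose, with a median log2 fold change of -0.33. IFITM1, IFITM2 and IFITM3 hinder fusion of viral and cell membranes and lie together on chromosome 11 (303655 to 329475). IFITM2 was at 35.6, 35.1 and 36.4 CPM in shLIS1 libraries 1 to 3, against 63.0, 56.3 and 57.8 CPM in control libraries 1 to 3 (log2 fold change -0.72, SE 0.07, edgeR adjusted p = 4.06e-08). IFITM3 was at 395, 456 and 471 CPM in shLIS1, against 633, 579.7 and 641 CPM in control (-0.49, SE 0.06, edgeR adjusted p = 3.56e-06). For both the groups were well apart. IFITM1, with 149, 182 and 186 CPM in shLIS1, against 200.2, 188 and 213 CPM in control, had a log2 fold change of -0.22 (adjusted p = 0.0306). Its groups lay next to each other without overlap, and the call was lost on leaving out control library 1, control library 3 or shLIS1 library 1. BST2, or tetherin, which holds budding virions on the cell surface, fell with -0.33. PLSCR1, a phospholipid scramblase that hinders virus entry, was the member of the group that rose, at 331, 384 and 374 CPM in shLIS1, against 279, 311 and 312 CPM in control (0.27, SE 0.06, edgeR adjusted p = 0.00119). With the offset IFITM2 (-0.55) and IFITM3 (-0.31) stayed lower, while IFITM1 (-0.12), BST2 (-0.09) and PLSCR1 (0.11) did not pass. The IFITM transcripts resemble each other, with 42.3% of 50-base stretches of IFITM1, 15.8% of IFITM2 and 20.3% of IFITM3 shared with other genes, so reads may have been split among them.

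ISG15 is a ubiquitin-like protein that is joined to other proteins by the E2 enzyme UBE2L6 and the ligase HERC5, and removed by USP18, which also restrains the interferon receptor. ISG15 itself was at 214, 264 and 269 CPM in shLIS1 libraries 1 to 3, against 239.9, 249 and 266 CPM in control libraries 1 to 3, overlapping groups with a log2 fold change of -0.01 (edgeR adjusted p = 0.899). With the offset it was higher (0.22, adjusted p = 0.0168). UBE2L6 was at 175, 197 and 189.9 CPM in shLIS1, against 216, 213 and 227 CPM in control (-0.22, SE 0.06, edgeR adjusted p = 0.0023), a call that the offset removed and whose sign it turned (0.04). The ligases rose. HERC6, which does the work of HERC5 in mice, was at 67.5, 76.4 and 72.9 CPM in shLIS1, against 43.7, 46.5 and 46.5 CPM in control (0.66, SE 0.07, edgeR adjusted p = 7.7e-08). HERC5 was at 44.1, 46.6 and 47.6 CPM in shLIS1, against 28.7, 35.8 and 34.5 CPM in control (0.48, SE 0.08, edgeR adjusted p = 5.7e-05). USP18 rose with 0.41, and 23.4% of its 50-base stretches occur in other genes, mostly its copy USP41.

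The ADP-ribosyltransferases and the E3 ligase DTX3L, the partner of PARP9, all rose. PARP14, which adds single ADP-ribose units to proteins, had the smallest p of the 49 members. It was at 334, 355 and 371 CPM in shLIS1 libraries 1 to 3, against 186, 198 and 190.3 CPM in control libraries 1 to 3 (log2 fold change 0.88, SE 0.06, edgeR adjusted p = 1.94e-10). PARP9 was at 231, 251 and 245 CPM in shLIS1, against 162, 176 and 164 CPM in control (0.53, SE 0.05, edgeR adjusted p = 1.22e-07). DTX3L, which starts head to head with PARP9 on chromosome 3 with 240 bases of overlap, had a log2 fold change of 0.49, and PARP12, which restrains translation, had 0.22. With the offset the values were 0.63 for PARP14, 0.27 for PARP9, 0.28 for DTX3L and 0.30 for PARP12, and each stayed called.

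All 4 genes of nuclear bodies and nuclear sensing rose. SP100, a core protein of PML nuclear bodies, was at 165, 173 and 184 CPM in shLIS1 libraries 1 to 3, against 94.5, 109 and 111 CPM in control libraries 1 to 3 (log2 fold change 0.73, SE 0.06, edgeR adjusted p = 1.29e-08). IFI16, a sensor of nuclear DNA, was at 527, 533 and 531 CPM in shLIS1, against 339.6, 398 and 383 CPM in control (0.51, SE 0.06, edgeR adjusted p = 3.8e-07). The shLIS1 libraries were nearly equal for IFI16. TRIM22, a ubiquitin ligase that limits viral transcription, had 0.64 and SP110 had 0.37. Of the 50-base stretches of SP100, 13.3% occur in other genes, mostly the pseudogene HMGB1P3. TRIM22 lies across TRIM5 on the opposite strand, a gene that also rose (0.32). The 4 genes stayed higher with the offset, between 0.32 for IFI16 and 0.52 for SP100.

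The remaining induced proteins split by gene. IFI44L was at 102, 127 and 128 CPM in shLIS1 libraries 1 to 3, against 44.5, 55.8 and 48.4 CPM in control libraries 1 to 3 (log2 fold change 1.26, SE 0.10, edgeR adjusted p = 3.79e-06), and its neighbour IFI44 had 0.63. XAF1, which opposes the apoptosis inhibitor XIAP, was at 154, 182 and 185 CPM in shLIS1, against 57.8, 82.5 and 72.1 CPM in control (1.29, SE 0.15, edgeR adjusted p = 0.000714). Of the 50-base stretches of XAF1, 69.6% also lie in a transcript annotated to another gene, PRAL, in GENCODE release 29. EPSTI1, a protein found in epithelial cells grown with stromal cells, was at 58.0, 69.8 and 71.4 CPM in shLIS1, against 38.9, 40.8 and 44.8 CPM in control (0.68, SE 0.08, edgeR adjusted p = 1.16e-06). IFI27, a small mitochondrial protein, was lower, at 308, 371 and 379.6 CPM in shLIS1, against 409, 405 and 428 CPM in control (-0.23, SE 0.07, edgeR adjusted p = 0.00815). LGALS3BP, a secreted glycoprotein that binds galectins, was lower as well, at 505, 495 and 501 CPM in shLIS1, against 555, 529 and 593 CPM in control (-0.16, SE 0.05, edgeR adjusted p = 0.0148), but was called higher, close to the threshold, with the offset (0.12, adjusted p = 0.0412). IFI35 had a log2 fold change of -0.18 (adjusted p = 0.0368) that turned to 0.12 with the offset, and IFI6 of -0.12 (adjusted p = 0.491) that turned to 0.05, neither past the threshold with the offset. The IFI27 call was lost without control library 3 or shLIS1 library 1, and that of LGALS3BP without control library 3 or shLIS1 library 2. That of IFI35 was lost on leaving out control library 3, shLIS1 library 1 or shLIS1 library 2.

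The transcription factors that carry the signal changed in different directions. STAT2 was at 116, 117 and 126 CPM in shLIS1 libraries 1 to 3, against 104, 103 and 105 CPM in control libraries 1 to 3 (log2 fold change 0.20, SE 0.05, edgeR adjusted p = 0.00358). IRF9, its DNA-binding partner, was at 5.20, 4.69 and 4.81 CPM in shLIS1, against 3.72, 3.43 and 2.36 CPM in control (0.64, SE 0.18, edgeR adjusted p = 0.00522), the lowest level of the 49. All 50-base stretches of the longest IRF9 transcript (100%) are shared with a read-through gene that overlaps it on the same strand, so its level and its change are uncertain. IRF1, a factor of the interferon gamma response, was at 104, 109 and 106 CPM in shLIS1, against 144, 125 and 144 CPM in control (-0.37, SE 0.06, edgeR adjusted p = 2.24e-05). The antisense gene IRF1-AS1 overlaps it by 48263 bases and rose (0.71), and IRF1 stayed lower with the offset (-0.31). Of the 50-base stretches of IRF1, 15.2% also occur in transcripts of other genes (9.8% in C5orf56), so its count is less certain. IRF7, the amplifier of interferon alpha genes, was at 33.2, 36.6 and 35.5 CPM in shLIS1, against 29.9, 35.5 and 32.9 CPM in control, overlapping groups with 0.09 (adjusted p = 0.34). With the offset IRF7 was called higher (0.46, adjusted p = 8.16e-05).

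Genes that lie next to each other mostly shared a direction. With gaps of up to 100000 bases, 25 of the members fell into 10 clusters. In 8 clusters every member rose, in the IFITM cluster every member fell, and the GBP cluster was mixed. Of all 49 members 35 rose and 10 fell, where 23.5% of all tested genes were higher and 24.9% lower. Whether neighbours shared a direction more often than other members was not tested. Neighbours can share regulatory sequence and similar transcripts and are not independent of each other.

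The direction of the members went with the composition of their transcripts, as it did across the transcriptome. The 35 members that rose had a median GC content of 43.4% and a median transcript length of 3513 bases, and the 10 that fell had 57.1% and 1130 bases. Over the 49 members, which share the same 6 libraries, Spearman's rho of log2 fold change was -0.683 with GC content and 0.610 with length, and -0.459 and 0.472 with the offset. Over 14491 tested genes it was -0.501 and 0.292 without the offset. In the quintile of tested genes with the lowest GC content all 8 members rose and their median log2 fold change was 0.85, against 0.28 for all genes of that quintile, of which 51.2% were higher and 6.21% lower. In the next quintile all 14 members rose with a median of 0.66, against 0.14 for all genes, of which 36.6% were higher. In the middle quintile 8 of 10 members rose and 1 fell, with a median of 0.34, against -0.01 for all genes, of which 19.1% were higher and 20.9% lower. In the fourth quintile 5 members rose and 7 fell of 13, with a median of -0.22, against -0.15 for all genes, of which 7.69% were higher and 36.5% lower. In the quintile with the highest GC content 0 members rose and 2 fell of 4, with a median of -0.09, against -0.28 for all genes, of which 3.42% were higher and 51.4% lower.

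The offset did not remove the rises as a whole. Of the 35 members that rose, 33 stayed higher with it, and of the same 35 the value was smaller for 25 and larger for 10. IFIT5 and PLSCR1 lost their call. Of the 10 that fell, 4 stayed lower, IFITM2, IFITM3, OASL and IRF1, and all 10 moved upward. ISG15 and IRF7 gained a call as higher and GBP2 as lower, and the call of LGALS3BP turned from lower to higher. At least 2-fold rises were left for SAMD9L, XAF1, MX2 and SAMD9. The offset takes out any change that follows length and GC content, of whatever origin, and its part in the result for a single gene was not tested.

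**Figure D2:**
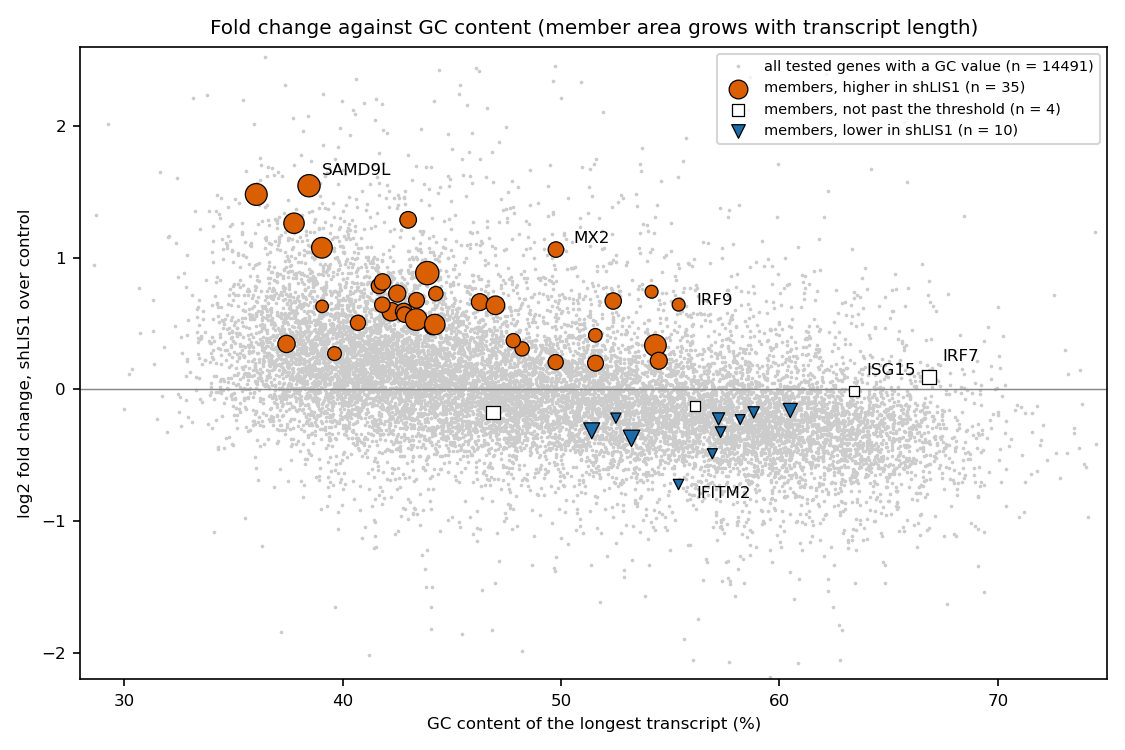
Log2 fold change of shLIS1 over control (y axis) against the GC content in percent of the longest transcript (x axis) for 14491 tested genes (grey points, 20 of which lie outside the axes) and the 49 members (filled circles higher, open squares not past the threshold, triangles lower, with area growing with transcript length). The members that rose lie mostly at low GC content, while 7 members that rose (USP18, STAT2, MX1, ISG20, OAS3, PARP12 and IRF9) lie within the GC range of the members that fell, 51.4% to 60.5%.

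**Figure D3:**
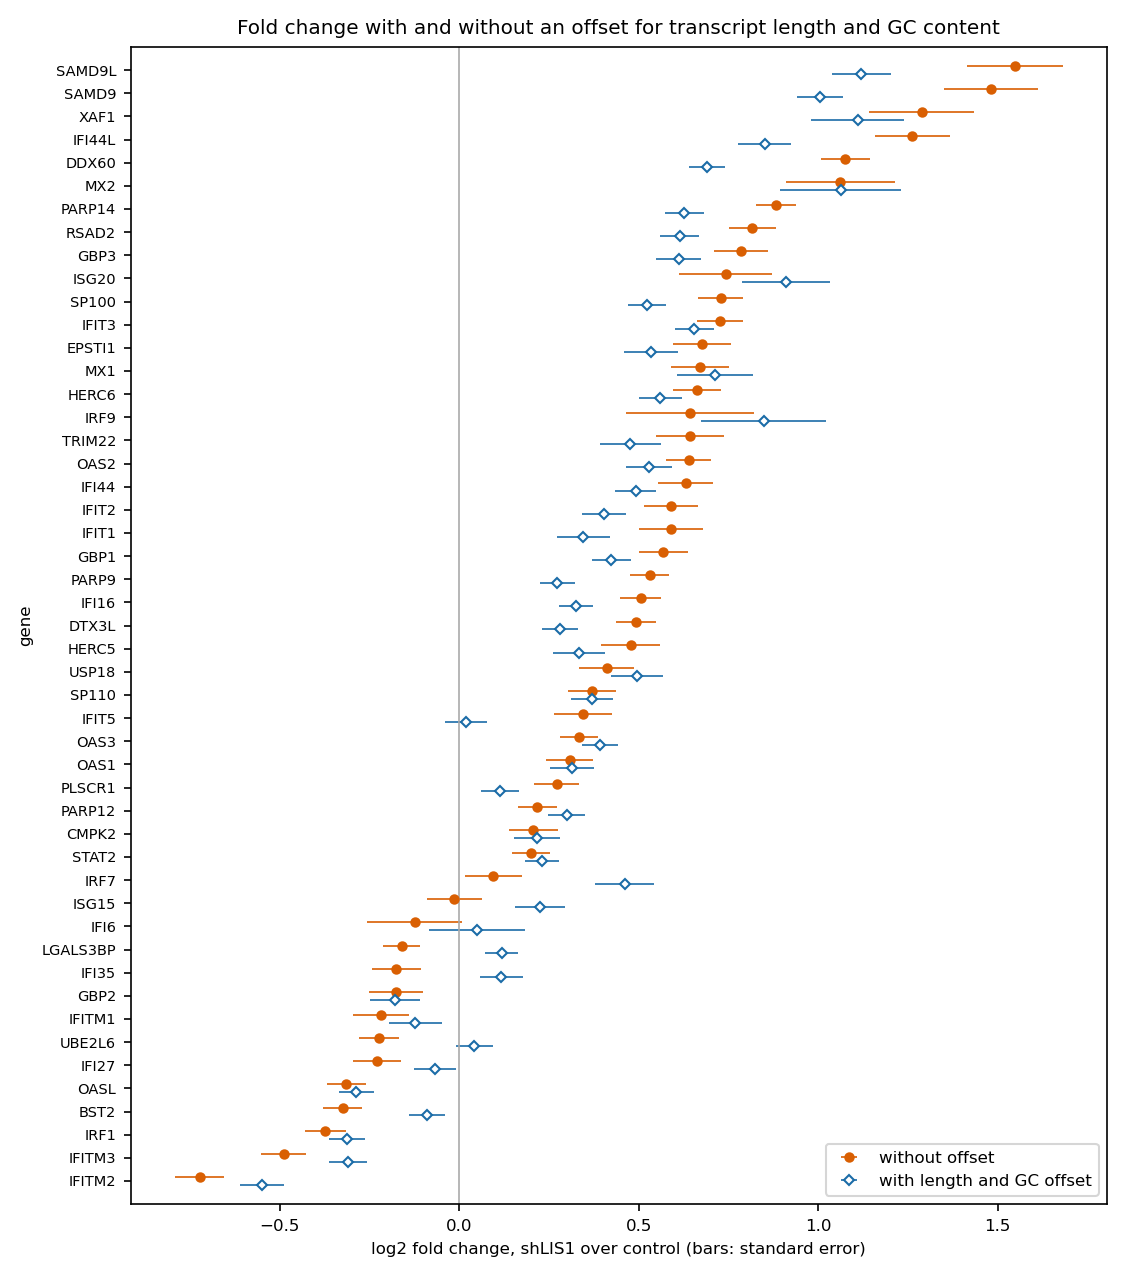
Log2 fold change of shLIS1 over control with its standard error (x axis) for each member (y axis), as tested (circles) and after the trend over GC content and length was taken out (diamonds). Of the 35 members that rose, 33 stay called higher. IFITM2, IFITM3, OASL and IRF1 stay called lower and GBP2 becomes called lower. IFITM1, BST2 and IFI27 stay below zero without a call, and ISG15, UBE2L6, IFI6, IFI35 and LGALS3BP cross to above zero.

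Per length of the longest transcript, the highest control level was that of IFITM3, at 765 CPM per kb, with 545 CPM per kb in shLIS1. IFI27 followed with 487 CPM per kb in shLIS1 and 571 CPM per kb in control, and BST2 with 304 CPM per kb in shLIS1 and 380.3 CPM per kb in control. Of the 10 members with the highest level per length in control, 2 rose, PLSCR1 and IFI16, 6 fell and 2 did not pass, while of the other 39 members 33 rose and 4 fell. Among all tested genes 23.5% were higher and 24.9% lower. With the offset 3 of the 10 were higher and 1 was lower, against 17.7% and 24.0% of all genes tested that way. PLSCR1 and IFI16 had a GC content of 39.6% and 40.7%, and the other 8 of the 10 between 52.5% and 63.4%, so level and composition cannot be told apart here. In shLIS1 the order at the top was IFITM3, IFI27, ISG15 (316 CPM per kb) and BST2. The shLIS1 libraries of IFITM3 and IFI27 overlapped on that scale, as did those of ISG15 and BST2, whereas the control libraries of IFITM3, IFI27 and BST2 did not overlap with each other.

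**Figure D4:**
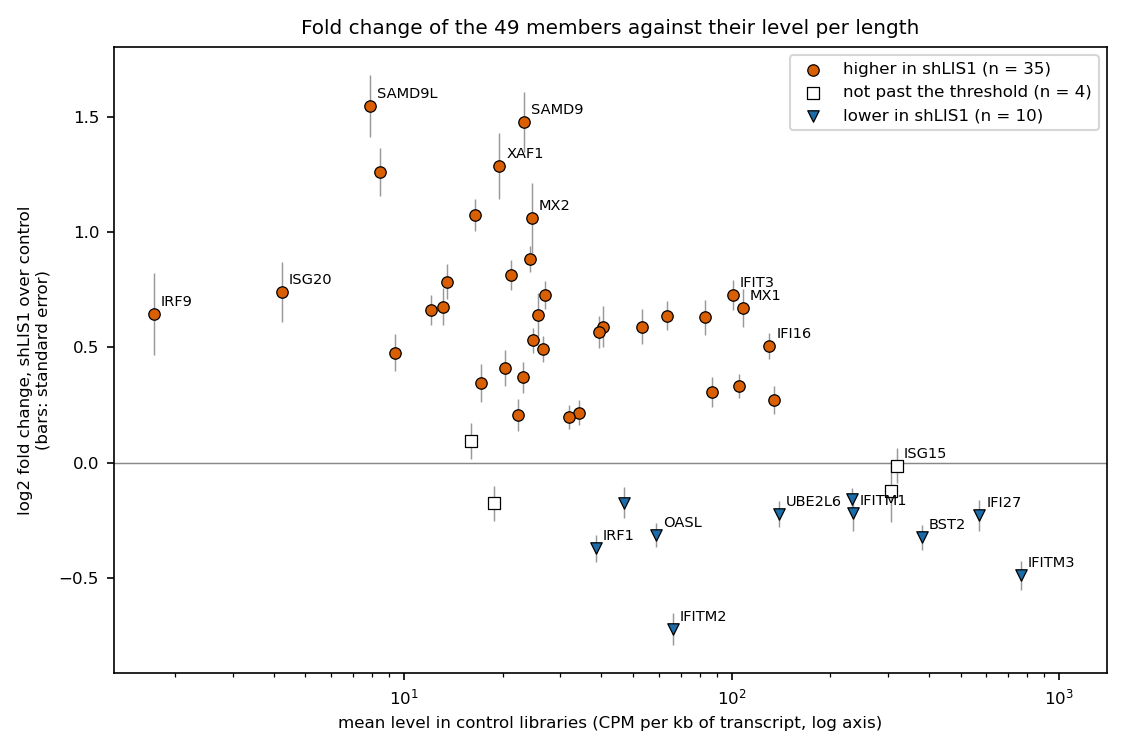
Log2 fold change of shLIS1 over control with its standard error (y axis) against the mean level of the 3 control libraries in CPM per kb of transcript (x axis, log scale) for the 49 members, by call. The 7 members with the highest level, from LGALS3BP at 232 to IFITM3 at 765 CPM per kb in control, lie at or below zero, and the 6 with at least 2-fold rises lie between 7.85 and 24.5 CPM per kb.

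Upstream of these genes, 7 of 22 listed interferon ligands were in the count table, and 1 passed the filter on low counts. IFNE, interferon epsilon, a type I interferon known from the epithelium of the reproductive tract, was at 2.55, 3.05 and 2.34 CPM in shLIS1 libraries 1 to 3, against 0.513, 0.646 and 0.540 CPM in control libraries 1 to 3. On the log2 scale it rose by 2.20 (SE 0.29, edgeR adjusted p = 2.66e-06), and by 1.94 with the offset. The level was low, with 54 to 55 counts per shLIS1 library and 8 to 13 per control library. The gene lies on chromosome 9 (21480839 to 21482313) wholly inside MIR31HG, on the same strand, and MIR31HG fell (-0.46), so the assignment of these reads is uncertain. IFNB1, interferon beta, had 3 to 6 counts in shLIS1 libraries and 1 to 6 in control libraries and was not tested. The type III ligands were not tested either. In shLIS1 libraries 1 to 3, IFNL1 had 5, 0 and 3 counts, IFNL2 had 2, 6 and 0, and IFNL3 had 3, 1 and 2. In control libraries 1 to 3, IFNL1 had 0, 0 and 2 counts, and IFNL2 and IFNL3 had 0 in each.

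Of 22 tested receptor and signalling genes of the pathway, 7 rose, 4 fell and 11 did not pass. Their median log2 fold change was -0.01. Among all tested genes 23.5% were higher, 24.9% lower and 48.4% changed in either direction, a share similar to that of these 22. The counts were the same with the offset, but most of the rises and some of the falls were those of other genes. With it 17.7% of all genes were higher and 24.0% lower. The phosphatase PTPN11 was at 312, 313 and 315 CPM in shLIS1 libraries 1 to 3, against 207, 232 and 209 CPM in control libraries 1 to 3 (0.54, SE 0.06, edgeR adjusted p = 1.37e-07), and at 0.25 with the offset. IFNAR1, a subunit of the type I receptor, was at 90.2, 91.4 and 90.6 CPM in shLIS1, against 68.2, 71.9 and 69.1 CPM in control (0.38, SE 0.06, edgeR adjusted p = 9.46e-06). The groups were apart for both genes, but IFNAR1 did not pass with the offset (0.09, adjusted p = 0.125). SOCS1, which blocks JAK kinases, was at 5.11, 6.28 and 6.24 CPM in shLIS1, against 9.88, 9.39 and 11.6 CPM in control (-0.81, SE 0.13, edgeR adjusted p = 3.18e-05), and IRF3 (-0.40) and IRF5 (-0.36) also fell. With the offset SOCS1 was at -0.43 and stayed called, while IRF3 (-0.05) and IRF5 (-0.18) did not pass.

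Of 53 tested other interferon-induced genes, 31 rose, 6 fell and 16 did not pass, where 23.5% of all tested genes were higher and 24.9% lower. Their median log2 fold change was 0.24. With the offset 34 were higher and 4 lower, against 17.7% and 24.0% of all genes tested that way. The RNA sensor IFIH1 was at 145, 161 and 161 CPM in shLIS1 libraries 1 to 3, against 74.9, 87.2 and 88.8 CPM in control libraries 1 to 3 (0.89, SE 0.06, edgeR adjusted p = 2.02e-09). DDX60L, the neighbour of DDX60, was at 47.6, 49.8 and 59.6 CPM in shLIS1, against 14.3, 19.1 and 18.5 CPM in control (1.59, SE 0.11, edgeR adjusted p = 1.42e-08). The chemokine CXCL10 was at 53.2, 57.0 and 61.8 CPM in shLIS1, against 21.4, 28.6 and 27.0 CPM in control (1.15, SE 0.09, edgeR adjusted p = 1.54e-08), and its groups did not overlap. TRAFD1 (-0.51), WARS1 (-0.47) and LY6E (-0.46) had the smallest p-values among the falls. With the offset TRAFD1 (-0.41) and WARS1 (-0.42) stayed lower and LY6E (-0.08, adjusted p = 0.185) did not pass. APOL6, called higher without the offset (0.23), was called lower with it (-0.19, edgeR adjusted p = 0.00152). GBP4, which had not passed (0.04), was also called lower with the offset (-0.26).

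**Figure D5:**
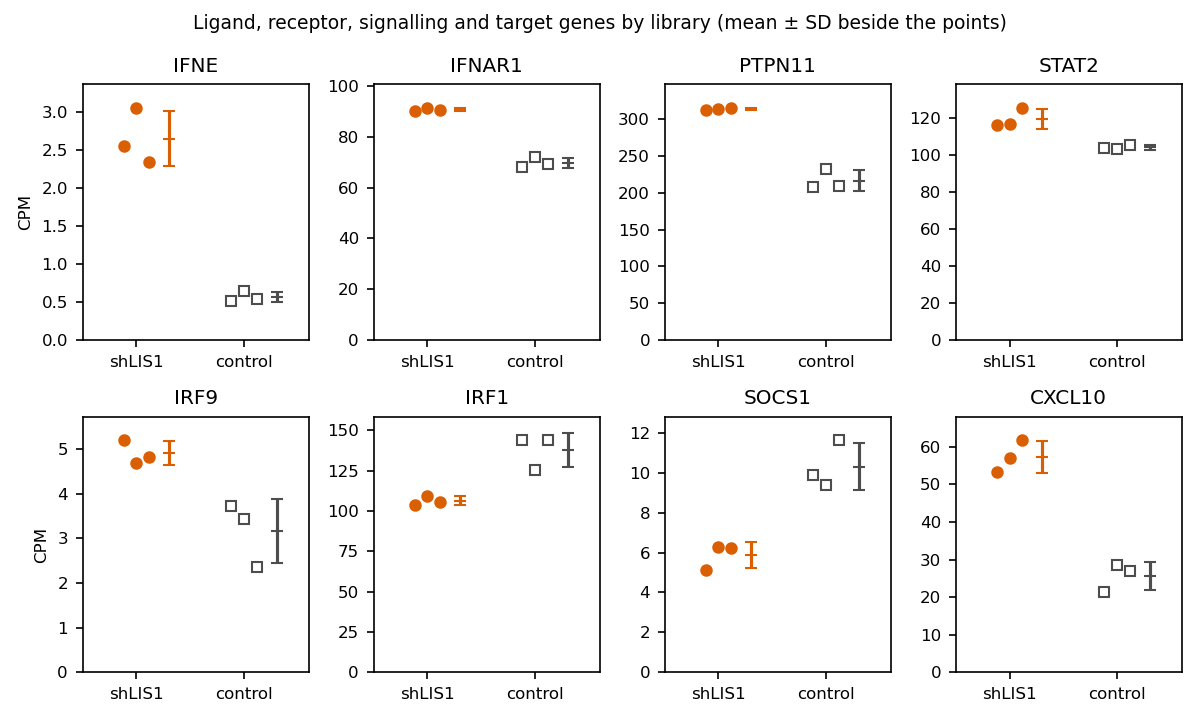
CPM in each library (y axis, from 0) for a ligand, a receptor, a phosphatase, 3 transcription factors, a feedback inhibitor and a chemokine of the interferon pathway, with shLIS1 libraries as filled circles, control libraries as open squares and the mean ± SD (n = 3 each) beside them. IFNE, IFNAR1, PTPN11, STAT2, IRF9 and CXCL10 are higher and IRF1 and SOCS1 lower in all 3 shLIS1 libraries.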

How the data were processed

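RNA from 6 SCC25 samples was sequenced after oligo(dT) capture, with dUTP marking of the second strand, per the labels' protocols. The authors deposited read counts per gene, whole numbers with differing library totals and no normalization, with Ensembl identifiers and positions per the file headers. Build hg38 is named in the submitters' processing notes. The aligner, counting tool, annotation and strand setting were not given in the sources used here.

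Counts were filtered with filterByExpr (minimum count 10, minimum total 15), scaled by TMM and tested with edgeR 4.0.16 (quasi-likelihood, robust) in R 4.3.3 with group as the only term. Benjamini-Hochberg adjustment ran over 14964 genes with a threshold of 0.05. The standard error of a fold change was its size on the log2 scale divided by the root of F. Same-numbered libraries did not deviate together (correlations from -0.0381 to 0.0315), so numbers were not used as pairs. Replicate libraries differed by more than sampling noise (chi-square per gene from 2.64 to 10.9).

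Alternatives were upper quartile or RLE scaling, counts unfiltered or with 3 libraries at 1 CPM or more, DESeq2 1.42.0, voom in limma 3.58.1, no robust estimation, a replicate block, an offset smoothed over log2 length and GC content of the longest GENCODE 29 transcript (mgcv 1.9.3, basis size 6, available for 96.8% of tested genes), the block with the offset, and leaving out each library.

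The members, the lists of other pathway genes and the tests were chosen with earlier results of these data known. By rule, values per library are given for up to 2 members per role and direction with the smallest p, and for PAFAH1B1, and up to 3 genes per pathway list and direction are named. Of the genes this rule names, 1 is not reported here. Those of SAMD9, SAMD9L, MX2, ISG15, GBP2, IFITM1, XAF1 and IRF7 were added after their values were seen. APOL6, GBP4, IFNL1, IFNL2 and IFNL3 were also named after their values were seen. Shared 50-base stretches were counted against all GENCODE 29 transcripts on both strands. Protein sequences were not used here. Floors for 0 counts cover counting error only.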

Additional observations from a re-analysis of the deposited data

How the results depend on the processing

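The counts of rises among the members, both pathway lists and all tested genes, and the counts of falls outside the members, stayed within 1.5 times under every alternative run. The number of members called lower, 10, was 5 with the length and GC offset and 4 with the replicate block and the offset, and 6 to 11 on leaving out 1 library. The median log2 fold change of the members, 0.49, was 0.369 with the offset, 0.374 with the block and the offset, and 0.43 to 0.55 on leaving out 1 library. PAFAH1B1, at -0.52, was at -0.81 with the offset. The replicate block alone gave 35 members higher and 10 lower, with the median at 0.49, and changed no member's call. The offset, first, and the block with the offset, second, turned the sign of 5 members: ISG15 to 0.22 and 0.22, UBE2L6 to 0.0419 and 0.0415, IFI6 to 0.0495 and 0.0431, IFI35 to 0.12 and 0.12, and LGALS3BP to 0.12 and 0.12. On leaving out 1 library, ISG15 ranged from -0.0736 to 0.0840, positive without control library 3 (0.0343) or shLIS1 library 1, and IFI6 from -0.233 to 0.0013, positive without shLIS1 library 1. The offset tests fewer genes and removes every change that follows length and GC content. DESeq2 and RLE scaling each lost 1 member's call, that of IFI35, and leaving counts unfiltered lost those of IFI35 and LGALS3BP, with 8 members lower. The calls that the offset gave to GBP2 as lower and LGALS3BP as higher were not made with the block and the offset. The filter on low counts kept no member from being tested, but it did so for most interferon ligands in the count table. The lowest count of a member in any library was 48, for IRF9, which had the largest SE of the members (0.18). Its edgeR adjusted p rose up to 0.0444 on leaving out 1 library.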
